A study of Mus musculus with 21 samples.

Results

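The nuclear lamina and the bridges that join it to the cytoskeleton were followed through 10 mouse genes: Lmna, Lmnb1, Lmnb2, Lbr, Emd, Tmpo, Sun1, Sun2, Syne1 and Syne3. They were chosen by name, as the lamins, the SUN and nesprin proteins of the LINC complex (the linker of nucleoskeleton and cytoskeleton) and the membrane proteins that bind lamins, and every probe annotated to one of these symbols was taken. Of the 45281 probes on the array, 32 belonged to the 10 genes. A probe was kept where its signal lay above background in at least 3 of the 21 arrays, and 27 of the 32 were kept, among 27856 kept probes in all. Each of the 10 genes had a kept probe, and the 5 that were not kept were 4 of the 7 Syne1 probes and 1 of the 3 Syne3 probes.

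Lamins are intermediate filament proteins that form a meshwork under the inner nuclear membrane. B-type lamins are made in nearly all cells, while A-type lamins accumulate as cells differentiate. The lamin B receptor and the LEM-domain proteins emerin and LAP2 sit at the inner membrane and bind lamins and chromatin. SUN proteins cross the inner membrane and hold nesprins in the outer membrane, and nesprins reach actin, microtubules or intermediate filaments. Mutations in LMNA and EMD cause Emery-Dreifuss muscular dystrophy in humans, and in muscle fibres nesprin-1 is required for the regular spacing of nuclei.

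The samples were C2C12 cells, an established line of mouse myoblasts (MBs) that fuses into multinucleated myotubes (MTs) when serum is lowered. NET39 (gene Plpp7), TMEM38A, WFS1 and TMEM214 are nuclear envelope transmembrane proteins (NETs), and each was depleted with a lentiviral shRNA in MBs that were then selected with puromycin and differentiated to day 6. The reference for these knockdowns (KDs) was MTs carrying a control shRNA vector, which the sources call both empty and non-target, and untransduced MTs and MBs, at days 6 and 0, completed the 7 groups of 3 arrays. All MTs received tetrodotoxin against contraction and were lifted by partial trypsinization, which leaves single cells behind. Each KD was 1 transduced line with 1 gene targeted. The p-values measure the spread between replicate cultures, pooled over the 7 groups, and not the spread between independent lines. RNA pooled over the collected cells cannot separate fewer cells of one kind from less RNA per cell.

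Values are background-corrected, quantile-normalized log2 intensities, and a difference was called at an adjusted p below 0.05 in limma with an absolute log2 ratio above 0.5, over all kept probes. Where several probes measured a gene, the brightest stood for it and the others are given where they differed. The shares of called probes given below count every kept probe, dim ones included, and so are not shares of genes. The mean scanner intensity was 172 to 289 in the 6 untransduced arrays and 301 to 533 in the 15 arrays of shRNA lines, with 42.9 to 52.8% of probes above background. MB replicate 1 stood apart from the other MB arrays, with 1136 kept probes more than 1 log2 away from the mean of replicates 2 and 3, against 53 such probes between replicates 2 and 3. As a check of the labels, the targeted gene was lower in every KD than with the control shRNA (log2 ratio ± SE -1.79 ± 0.13 for Plpp7, -4.45 ± 0.12 for Tmem38a, -4.17 ± 0.19 for Wfs1 and -1.17 ± 0.09 for Tmem214). Wfs1 was lower in the TMEM38A KD too (-0.73 ± 0.19), as were all 3 other targets in the TMEM214 KD. In the TMEM214 KD the median log2 ratio of the 4 targets was -1.12, so the fall there was not particular to Tmem214. All 9 measured myotube markers were higher in untransduced MTs than in MBs (median log2 ratio 5.67), and 4 of 5 undifferentiated myoblast markers were lower.

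The upstream sequences of 4 members are shown because these genes moved in different comparisons below: Lbr and Lmnb2 fell in MTs, Syne1 rose in MTs and in the TMEM38A KD, and Sun2 rose in the TMEM214 KD. Each is the 250 bases before a start site in RefSeq (GRCm38.p6), with motif matches in capitals. The motifs searched on both strands were the CCAAT box (CCAAT), the cell cycle homology element (TTTGAA), an E2F-type site (TTTCCCGC, TTTGGCGC, TTTCGCGC or TTTGCCGC) and the CAGCTG form of the E box, and no match overlapped one of another motif.
Lbr, chr1:181842402-181842651, minus strand: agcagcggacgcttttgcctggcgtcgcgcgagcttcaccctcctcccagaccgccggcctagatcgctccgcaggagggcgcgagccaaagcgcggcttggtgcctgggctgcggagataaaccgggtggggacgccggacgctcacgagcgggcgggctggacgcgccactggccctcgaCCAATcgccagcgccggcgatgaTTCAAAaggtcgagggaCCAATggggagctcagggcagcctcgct
Lmnb2, chr10:80918246-80918495, minus strand: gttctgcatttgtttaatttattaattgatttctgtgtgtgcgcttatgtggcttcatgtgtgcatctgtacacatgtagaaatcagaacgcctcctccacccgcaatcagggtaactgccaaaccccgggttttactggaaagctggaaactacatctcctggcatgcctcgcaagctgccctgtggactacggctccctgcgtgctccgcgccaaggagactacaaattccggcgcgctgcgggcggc
Sun2, chr15:79742537-79742786, minus strand: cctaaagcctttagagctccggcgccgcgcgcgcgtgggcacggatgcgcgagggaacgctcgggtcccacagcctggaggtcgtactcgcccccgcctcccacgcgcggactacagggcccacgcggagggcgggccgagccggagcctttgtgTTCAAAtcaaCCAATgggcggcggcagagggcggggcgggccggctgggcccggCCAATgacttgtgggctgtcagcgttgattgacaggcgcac
Syne1, chr10:5550693-5550942, minus strand: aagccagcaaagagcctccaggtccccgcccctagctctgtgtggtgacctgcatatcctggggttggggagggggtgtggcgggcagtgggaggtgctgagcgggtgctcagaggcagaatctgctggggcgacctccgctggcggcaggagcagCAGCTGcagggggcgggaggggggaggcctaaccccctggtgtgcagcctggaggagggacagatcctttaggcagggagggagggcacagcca
The Lbr window held 2 CCAAT boxes and 1 TTTGAA read from the other strand (printed as TTCAAA), the Sun2 window held the same 3 matches, the Syne1 window held 1 CAGCTG, and the Lmnb2 window held none of these letters. Promoters of 9 members with 15 start sites were at hand, and a CCAAT box lay before 7 of the 15, against 33.9% of 32851 windows of the same length over all genes. TTTGAA lay before 3 of the 15 (16% of all windows), and an E2F-type site (1.86%) and a CAGCTG (13%) before 1 each, in Tmpo and Syne1.

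The comparison of MTs with MBs asked how the lamina and the LINC complex change as myoblasts become myotubes. Transcripts of both B-type lamins, the lamin B receptor, both LEM-domain proteins, nesprin-3 and lamin A/C fell in MTs. By the brightest probe of each gene, lamin A/C fell least of these. Nesprin-1 rose, and neither SUN gene was called. In all, 8 of the 10 genes were called, 7 lower and 1 higher, where 24.7% of all kept probes were called (12.9% lower and 11.8% higher). The median log2 ratio of the 10 genes was -0.92, against -0.02 over all kept probes. Scaling the arrays to a common median instead left 7 members lower and Syne1 uncalled, while the share of higher calls among all calls went to 18.2%, against 47.8% with quantile normalization.

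**Figure D1:**
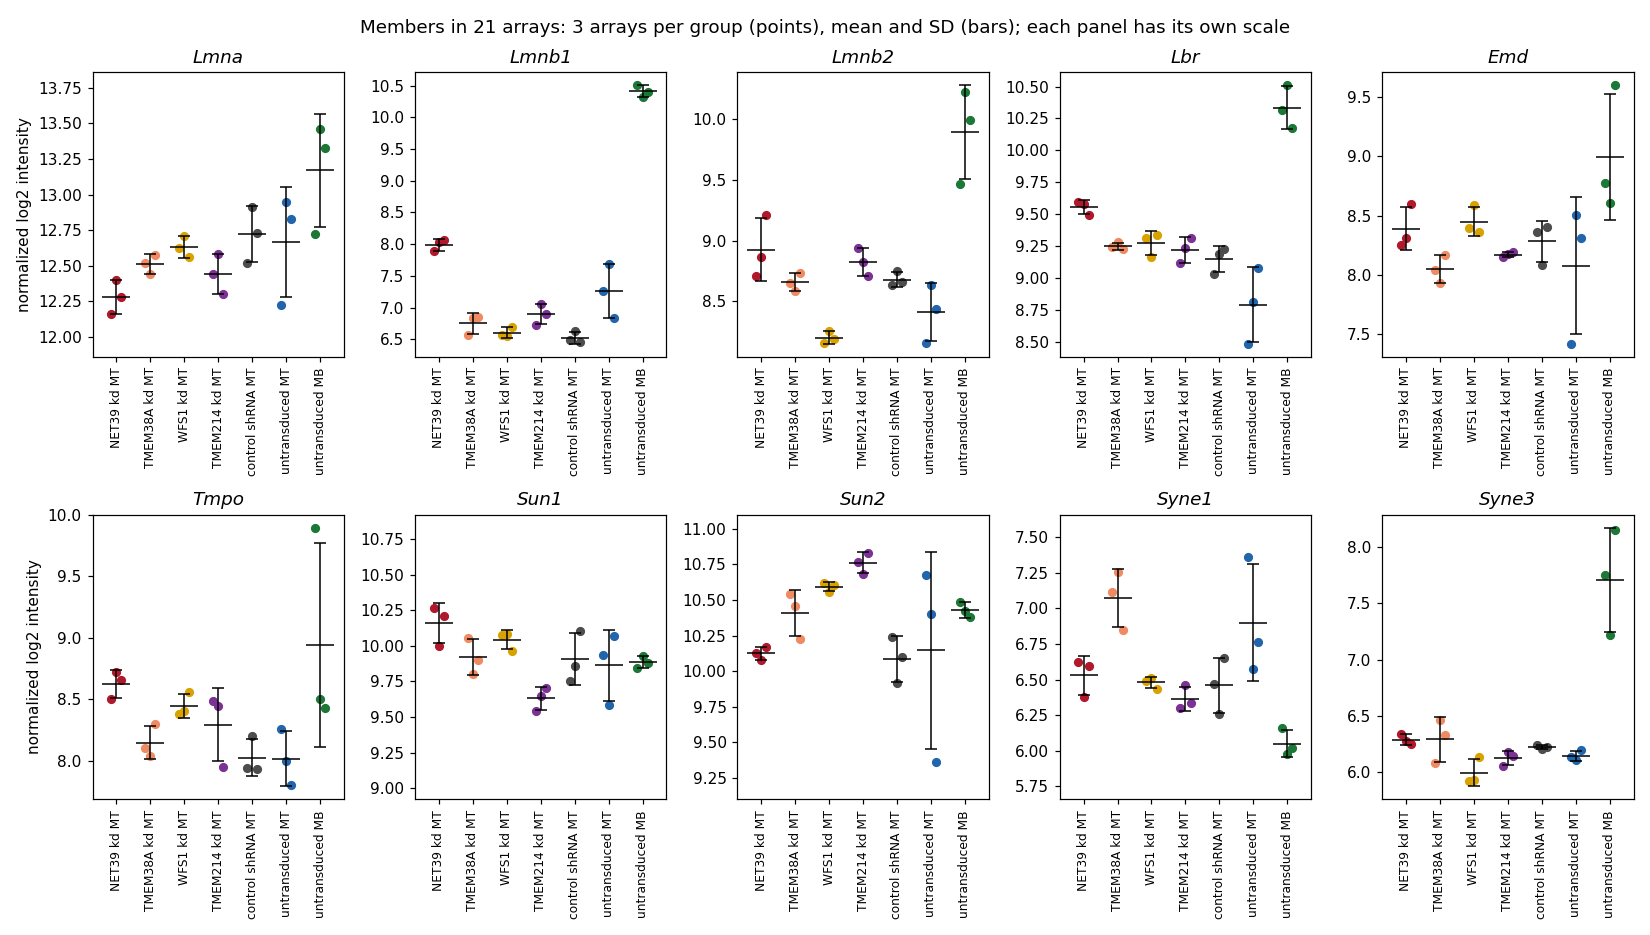
Normalized log2 intensity of the 10 genes in each of the 21 arrays (points), with the mean and SD of each group of 3 (bars), for the 4 KD lines, control shRNA MTs, untransduced MTs and MBs; each panel has its own scale. Lmnb1, Lbr and Syne3 are high in MBs and low in all MT groups, with Lmnb1 at 7.89 to 8.06 in the NET39 KD against 6.46 to 6.63 in control shRNA MTs.

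Lmnb1, which encodes lamin B1, had the largest change of the 10. It read 7.26, 7.69 and 6.83 in MTs, against 10.51, 10.32 and 10.40 in MBs. The groups lay over 2 log2 units apart, and the transcript was 8.88-fold lower in MTs (log2 ratio -3.15 ± 0.15 SE, adjusted p = 1.8e-12). The second Lmnb1 probe was dim, above background in 3 MB arrays and in none of the MT arrays, and was at least 1.41-fold lower in MTs; it passed the filter mainly through the MB arrays, and without MB replicate 1 it was no longer called (-0.33). Lmnb2, the gene of lamin B2, read 8.16, 8.63 and 8.43 in MTs, against 9.47, 10.22 and 9.99 in MBs. Every MT array was below every MB array, a 2.80-fold lower level (-1.49 ± 0.15, adjusted p = 2.2e-07), while its dim second probe differed by 0.02.

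Lmna, which encodes lamins A and C, fell at all 6 of its probes, by 0.50 to 1.46 log2. Its brightest probe read 12.23, 12.95 and 12.83 in MTs, against 12.72, 13.46 and 13.33 in MBs. These groups overlapped, and the difference of -0.50 ± 0.18 (adjusted p = 0.029) was lost without MB replicate 2 (-0.36), MB replicate 3 (-0.42) or MT replicate 1 (-0.28). The overlap lay between arrays of different numbers: same-numbered arrays deviated together in these groups, MTs minus MBs were -0.49, -0.51 and -0.50 within the 3 numbers, and with the replicate number as a block the adjusted p was 0.0070. The other 5 probes did not overlap between the groups, and ILMN_1221646 changed most, with 8.87, 8.77 and 9.01 in MTs against 10.28, 10.44 and 10.32 in MBs (adjusted p = 6.0e-09).

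Lbr, whose product binds B-type lamins and heterochromatin and also has sterol reductase activity, read 8.49, 8.81 and 9.08 in MTs, against 10.32, 10.51 and 10.17 in MBs. The transcript was 2.91-fold lower in MTs with no overlap (-1.54 ± 0.11, adjusted p = 1.9e-09). A second, dimmer Lbr probe had a log2 ratio of -0.36 and was not called.

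Emd, the gene of emerin, read 7.42, 8.51 and 8.31 in MTs, against 8.78, 8.61 and 9.60 in MBs. The highest MT array was just below the lowest MB array, and both Emd probes were called lower (-0.92 ± 0.23, adjusted p = 0.0036, and -0.85 ± 0.19). Tmpo, which encodes the LAP2 isoforms, fell at 3 of its 4 probes. Its brightest probe read 8.25, 8.0 and 7.80 in MTs, against 9.89, 8.50 and 8.43 in MBs, so that MB replicate 1 lay well above the other MB arrays. The log2 ratio of -0.92 ± 0.26 (adjusted p = 0.0075) fell short of the call without that array (-0.45), and 6 members in place of 7 were then lower. The probe ILMN_3022428 read 7.19, 6.96 and 7.00 in MTs, against 9.14, 8.88 and 8.89 in MBs. Here the MB arrays were close together and the level was 3.78-fold lower in MTs (-1.92 ± 0.12, adjusted p = 2.3e-10).

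Neither SUN gene was called. Sun1 read 9.94, 9.59 and 10.07 in MTs, against 9.84, 9.93 and 9.88 in MBs, a log2 ratio of -0.02 ± 0.11 (adjusted p = 0.92). Sun2 read 10.67, 10.40 and 9.36 in MTs, against 10.49, 10.42 and 10.38 in MBs (-0.28 ± 0.20, adjusted p = 0.31). MT replicate 3 alone was low for Sun2, and the MT arrays spanned more than 1 log2. Without MT replicate 1, the highest of the 3, both Sun2 probes were called lower (-0.55 and -0.73). The second Sun2 probe, at -0.48 ± 0.22 (adjusted p = 0.095), was also called lower with median scaling (-0.98, adjusted p = 0.036) and with control shRNA MTs as the end point (-1.01, adjusted p = 0.00076).

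Among the nesprins, Syne1 was the one member that rose. The probe that stood for it read 7.36, 6.58 and 6.76 in MTs, against 6.16, 5.98 and 6.02 in MBs. All MT arrays were higher, by 1.80-fold (0.85 ± 0.15, adjusted p = 0.00014), and only 1 of the 3 MB arrays was above background. The 2 other kept Syne1 probes were above background in 0 and 1 of the 3 MT arrays and in no MB array, so this comparison was measured by 1 probe, and a mean over all kept probes (0.38, not called) includes these background values. Syne3, whose product nesprin-3 binds the cytolinker plectin, read 6.14, 6.11 and 6.19 in MTs, against 7.75, 7.22 and 8.15 in MBs. The MT arrays were just above background and the level was 2.95-fold lower (-1.56 ± 0.15, adjusted p = 7.3e-08), and the second Syne3 probe was also called lower (-0.68 ± 0.11).

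Markers of dividing cells moved with these genes. Of the 15 listed, 12 were measured and 10 were lower in MTs, among them Mcm5 (-4.36), Cdc20 (-4.35), Tk1 (-4.28) and Birc5 (-4.18). The mean level of the 12 was 6.62 to 7.04 in MTs, against 10.0 to 10.1 in MBs, with Ccna2 above background in no MT array. Their part in the fall of the lamina genes was not tested.

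Other nuclear envelope genes were counted from lists of 4 kinds. Of 23 measured nuclear pore proteins 14 were lower and 2 higher in MTs (median -0.59), with the largest falls in Nup205 (-1.96 ± 0.11), Nup85 (-1.79 ± 0.09) and Aaas (-1.65 ± 0.11). Nup210, a membrane-anchored pore protein required for myogenic differentiation, rose by 1.37 ± 0.09 log2. With median scaling 15 were lower and 1 higher, and with the deposited matrix values 10 and 1. Of 17 lamin and chromatin partners, 5 were higher and 5 lower (median -0.06; 1 and 5 with median scaling, 1 and 4 with the matrix values), including Nrm, the gene of nurim (-2.36 ± 0.14), Cbx3, a heterochromatin protein (-1.33 ± 0.26), and Tm7sf2, a sterol reductase related to LBR, which rose by 1.00 ± 0.11. Of the 5 enzymes and subunits that add and process the prenyl tail of lamins, Rce1 (-0.81 ± 0.13) and Fntb (-0.63 ± 0.07) were lower (4 of 5 with median scaling). Of 8 microtubule organizers of the muscle nuclear envelope, 3 were higher and 1 lower (1 each with median scaling): Akap6, an anchor that nesprin-1 recruits, rose by 1.38 ± 0.12, Klc1 by 0.75 ± 0.09 and Akap9 by 0.65 ± 0.08, and Cdk5rap2 fell (-1.26 ± 0.17). All values are limma log2 ratios ± SE of the brightest probe.

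**Figure D2:**
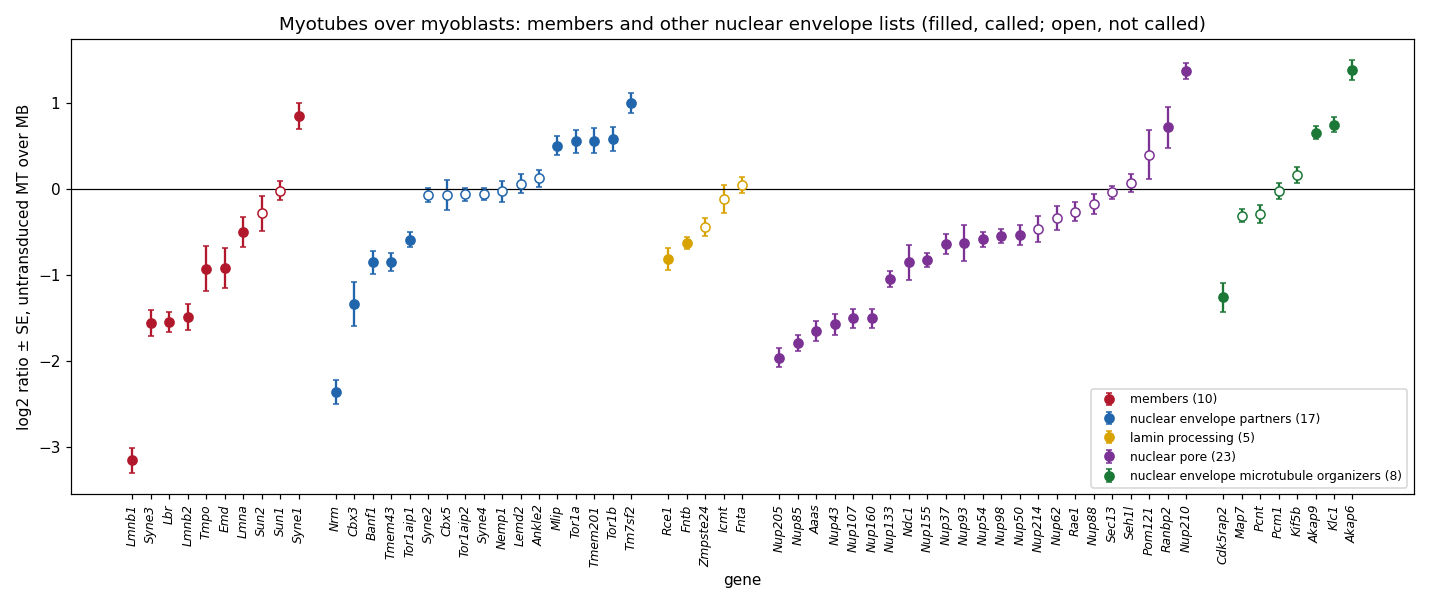
Log2 ratio of untransduced MTs over MBs (± SE, 3 arrays each) for the 10 members and the measured genes of the 4 nuclear envelope lists, each gene by its brightest probe; filled points were called. Members and nuclear pore genes lie mostly below 0 (medians -0.92 and -0.59), and the partners lie on both sides of 0.

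Control shRNA MTs were set against untransduced MTs to see what transduction and selection alone went with. Of the 10 genes only Lmnb1 was called, lower, where 9.33% of kept probes were called. It read 6.48, 6.63 and 6.46 in control shRNA MTs, against 7.26, 7.69 and 6.83 in untransduced MTs. The groups did not overlap (-0.74 ± 0.15, adjusted p = 0.0016), and with median scaling the log2 ratio was -0.11 with no call. In limma Syne1 had a log2 ratio of -0.44 (adjusted p = 0.048), below the threshold on size, and was called lower with an offset of 16 (-0.65). The Lmna probe ILMN_2597710 was higher (0.72 ± 0.13, adjusted p = 0.0008), while the brightest Lmna probe differed by 0.05. The arrays of the shRNA lines were all brighter than those of untransduced cells, so transduction and array brightness cannot be told apart. With median scaling the median of all kept probes moved to 0.27 from 0.01, 99.8% of calls were higher in place of 50.8%, and 7 members (Lmna, Lmnb2, Lbr, Emd, Tmpo, Sun1 and Sun2) were called higher. Among the other lists, Klc1 (0.99 ± 0.09) and Nup210 (0.66 ± 0.09) were higher and Cbx5 (-0.81 ± 0.17), Banf1 (-0.76 ± 0.14), Aaas (-0.67 ± 0.11), Tm7sf2 (-0.60 ± 0.11) and Rce1 (-0.54 ± 0.13) were lower; of the 12 dividing cell markers, Cdc20 (-0.70) and Birc5 (-0.62) were lower. With median scaling no gene of these lists was lower: 10 of 17 partners, all 5 processing enzymes, 18 of 23 pore proteins, 5 of 8 microtubule organizers and 1 dividing cell marker were then higher.

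When control shRNA MTs in place of untransduced MTs were set against the same MB arrays, 6 members were lower, where 28.8% of kept probes were called: Lmnb1 (-3.89), Syne3 (-1.48), Lmnb2 (-1.22), Lbr (-1.19), Tmpo (-0.92) and Emd (-0.71). Lmna (-0.45 at the brightest probe) and Syne1 (0.41) were not called there. The Lmna probes ILMN_1221646 (-1.22) and ILMN_1254405 (-0.66) were still called lower. ILMN_2597710 (-0.34), ILMN_3121891 (-0.32) and ILMN_2662387 (-0.31) lost the call. This comparison also spans untransduced and transduced cells.

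Depletion of NET39, a muscle-enriched member of the lipid phosphatase family, went with a higher level of lamin B1 and of 1 LAP2 probe. Of the 10 genes 1 was called, Lmnb1, where 7.37% of kept probes were called. Lmnb1 read 7.89, 8.03 and 8.06 in NET39 KD MTs, against 6.48, 6.63 and 6.46 in control shRNA MTs. The 3 KD arrays were well above the 3 control arrays, a 2.76-fold higher level (1.47 ± 0.15, adjusted p = 1.6e-06). The call held without any 1 replicate. Untransduced MTs had a mean of 7.26, between control shRNA MTs (6.53) and the NET39 KD (7.99), and were not tested against the KD. The Tmpo probe ILMN_3022428 read 7.64, 7.88 and 7.93 in the KD, against 7.00, 7.07 and 7.07 in the control (0.77 ± 0.12, adjusted p = 0.00029). The brightest Tmpo probe did not overlap between the groups either, but its log2 ratio of 0.60 ± 0.26 missed the threshold (adjusted p = 0.15); with MB replicate 1 left out of the fit, the same ratio was called (adjusted p = 0.0022). Lbr had a log2 ratio of 0.41 ± 0.11 (adjusted p = 0.022), below the threshold on size, with 9.59, 9.58 and 9.49 in the KD against 9.03, 9.19 and 9.22 in the control. The second Lmnb1 probe, dim in both groups, differed by 0.11, and the other 7 genes had log2 ratios between -0.44 (Lmna) and 0.25 (Lmnb2 and Sun1).

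Dividing cell markers moved in the same KD: 9 of 12 were higher, with Cdc20 at 1.68, Birc5 at 1.42, Top2a at 1.41 and Cdk1 at 1.41. Their mean level was 7.59 to 7.64 in NET39 KD MTs, against 6.56 to 6.61 in control shRNA MTs, and Ccna2 was above background in no control array. The undifferentiated myoblast markers Ccnd1 (2.63), Id3 (1.46) and Msc (0.81) were higher too, 3 of 5. Of 9 myotube markers Mef2c (-0.69), Ckm (-0.64) and Atp2a1 (-0.58) were lower (1 marker with median scaling). The part of residual or dividing myoblasts in the Lmnb1 and Tmpo values was not tested. Of the other envelope lists only Nup210 (-0.95 ± 0.09) and Icmt, the methyltransferase that acts on prenylated lamins (-0.78 ± 0.16), were called.

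**Figure D3:**
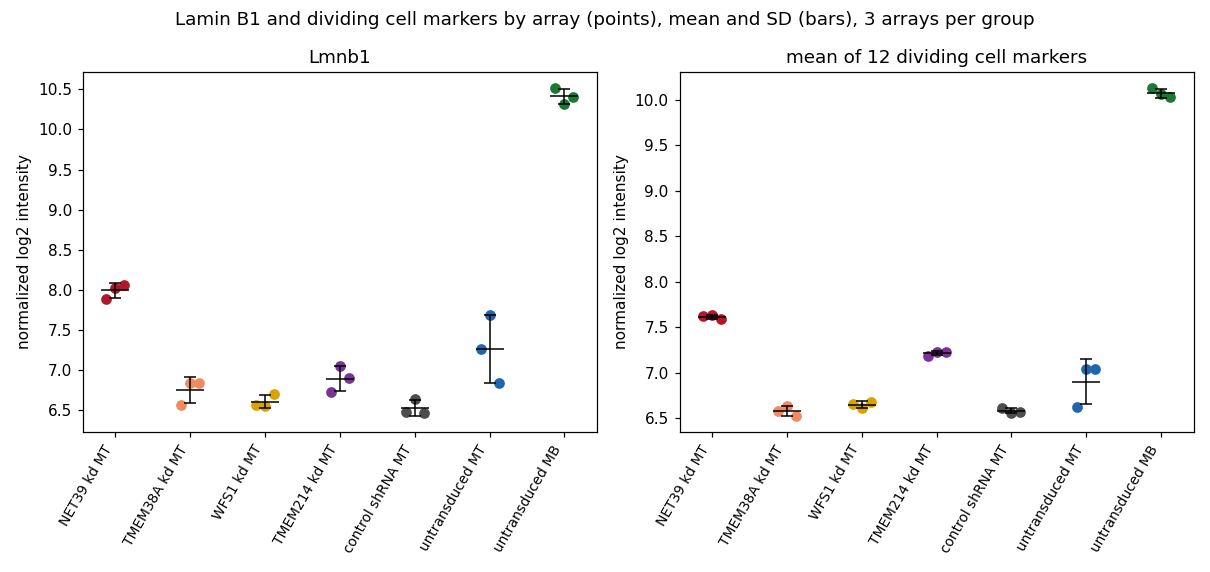
Normalized log2 intensity of Lmnb1 (left) and the mean over 12 dividing cell markers (right) in each of the 21 arrays, with the mean and SD of each group of 3. The NET39 KD lies above control shRNA MTs in both panels, and the TMEM214 KD is at 7.19 to 7.23 for the markers and 6.73 to 7.05 for Lmnb1.

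Depletion of TMEM38A, which encodes a cation channel of the sarcoplasmic reticulum and nuclear envelope, went with a higher Syne1 value and no other called member, where 7.43% of kept probes were called. Syne1 read 7.11, 7.26 and 6.85 in TMEM38A KD MTs, against 6.47, 6.26 and 6.65 in control shRNA MTs. All KD arrays were higher (1.53-fold; 0.61 ± 0.15, adjusted p = 0.0088), but the call was lost without control replicate 2 (0.51), without TMEM38A KD replicate 2 (0.52), with median scaling (0.45), with the deposited normalized values (0.42), without background correction (0.46) and with the mean of the Syne1 probes (0.29). Untransduced MTs had a Syne1 mean of 6.90, between control shRNA MTs (6.46) and the TMEM38A KD (7.07), and were not tested against the KD. The other 9 genes had log2 ratios between -0.24 (Emd) and 0.32 (Sun2). Akap6, which is placed at the nuclear envelope by nesprin-1, was higher in the same KD (0.53 ± 0.12, adjusted p = 0.004), as was the pore protein Nup62 (0.59 ± 0.14); with median scaling no gene of the 4 envelope lists was higher in this KD and 1 in each list was lower. None of 12 dividing cell markers was called, and their mean level was 6.53 to 6.63 in the KD, against 6.56 to 6.61 in the control. Of 5 undifferentiated myoblast markers Id1 (-1.20) and Ccnd1 (-0.80) were lower, and their mean level was 6.25 to 6.31 in the KD, against 6.67 to 6.75 in control shRNA MTs, with no overlap. Of the myotube markers Ckm was higher (0.83) and Casq2 (-1.17), Myog (-0.69) and Mef2c (-0.56) were lower (0 higher, 4 lower with median scaling). The part of these markers in the Syne1 value was not tested.

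Depletion of WFS1, the gene of the endoplasmic reticulum protein wolframin, gave no called member, where 6.73% of kept probes were called. Without adjustment, limma gave Lmnb2 a p of 0.0064 and Sun2 one of 0.023. The share of all kept probes with an unadjusted p below 0.05 was not counted, so these cannot be set against it. Lmnb2 read 8.16, 8.26 and 8.19 in WFS1 KD MTs, against 8.63, 8.75 and 8.66 in control shRNA MTs. These arrays did not overlap, and the log2 ratio of -0.48 ± 0.15 (adjusted p = 0.047) missed only the threshold on size. Sun2 read 10.62, 10.56 and 10.61 in the KD, against 10.24, 9.92 and 10.10 in the control (0.51 ± 0.20, adjusted p = 0.12). The arrays again did not overlap, and the second Sun2 probe had a log2 ratio of 0.62 with no call. From the other lists, Nrm (0.80 ± 0.14) and Nup93 (0.70 ± 0.21) were higher, and Nup43 (-0.68 ± 0.12), Zmpste24, the protease that matures prelamin A (-0.59 ± 0.10), and Klc1 (-0.56 ± 0.09) were lower. With median scaling no gene of the 4 envelope lists was higher in the WFS1 KD, and 1 partner, 3 processing enzymes, 5 pore proteins and 2 microtubule organizers were lower. No dividing cell marker was called, and their mean level was 6.61 to 6.68 in the KD, against 6.56 to 6.61 in the control.

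Depletion of TMEM214 went with higher Sun2, the 1 member called by its brightest probe, where 7.31% of kept probes were called. Sun2 read 10.76, 10.68 and 10.83 in TMEM214 KD MTs, against 10.24, 9.92 and 10.10 in control shRNA MTs. The KD arrays were all higher (1.60-fold; 0.68 ± 0.20, adjusted p = 0.034), and the second Sun2 probe was also called (0.79 ± 0.22, adjusted p = 0.020). The call at the brightest probe was close to the threshold: it was lost without control replicate 2 or 3 or any of the 3 KD replicates, with log2 ratios between 0.59 and 0.71, and with median scaling (0.65). The second probe lost its call without control replicate 2 (0.65), without KD replicate 3 (0.67) and with median scaling (0.81). The Tmpo probe ILMN_3022428 was higher in the KD (0.57 ± 0.12, adjusted p = 0.0038), with 7.83, 7.70 and 7.31 in the KD against 7.00, 7.07 and 7.07 in the control. This call was lost without KD replicate 1 (0.46). Lmnb1 had a log2 ratio of 0.37 ± 0.15 and was not called (adjusted p = 0.12), and Sun1 one of -0.27 ± 0.11 (adjusted p = 0.13).

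In the TMEM214 KD 8 of 12 dividing cell markers were higher, among them Cdc20 (1.04) and Cdk1 (0.97), with a mean level of 7.19 to 7.23, against 6.56 to 6.61 in control shRNA MTs; the count was 10 with median scaling and 5 with the deposited matrix values. Of 5 undifferentiated myoblast markers Ccnd1 was higher (1.63), with a mean level of 7.09 to 7.27, against 6.67 to 6.75. Of 9 myotube markers 5 were lower (3 with median scaling), led by Mef2c (-1.63). The mean level of the 9 was 11.9, against 12.4 to 12.5 in control shRNA MTs. Their part in the Sun2 and Tmpo values was not tested. Nup210 (-0.64 ± 0.09) and Klc1 (-0.53 ± 0.09) were lower, and no gene of the partner or lamin processing lists was called. With median scaling 1 pore protein was lower and no microtubule organizer was called.

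**Figure D4:**
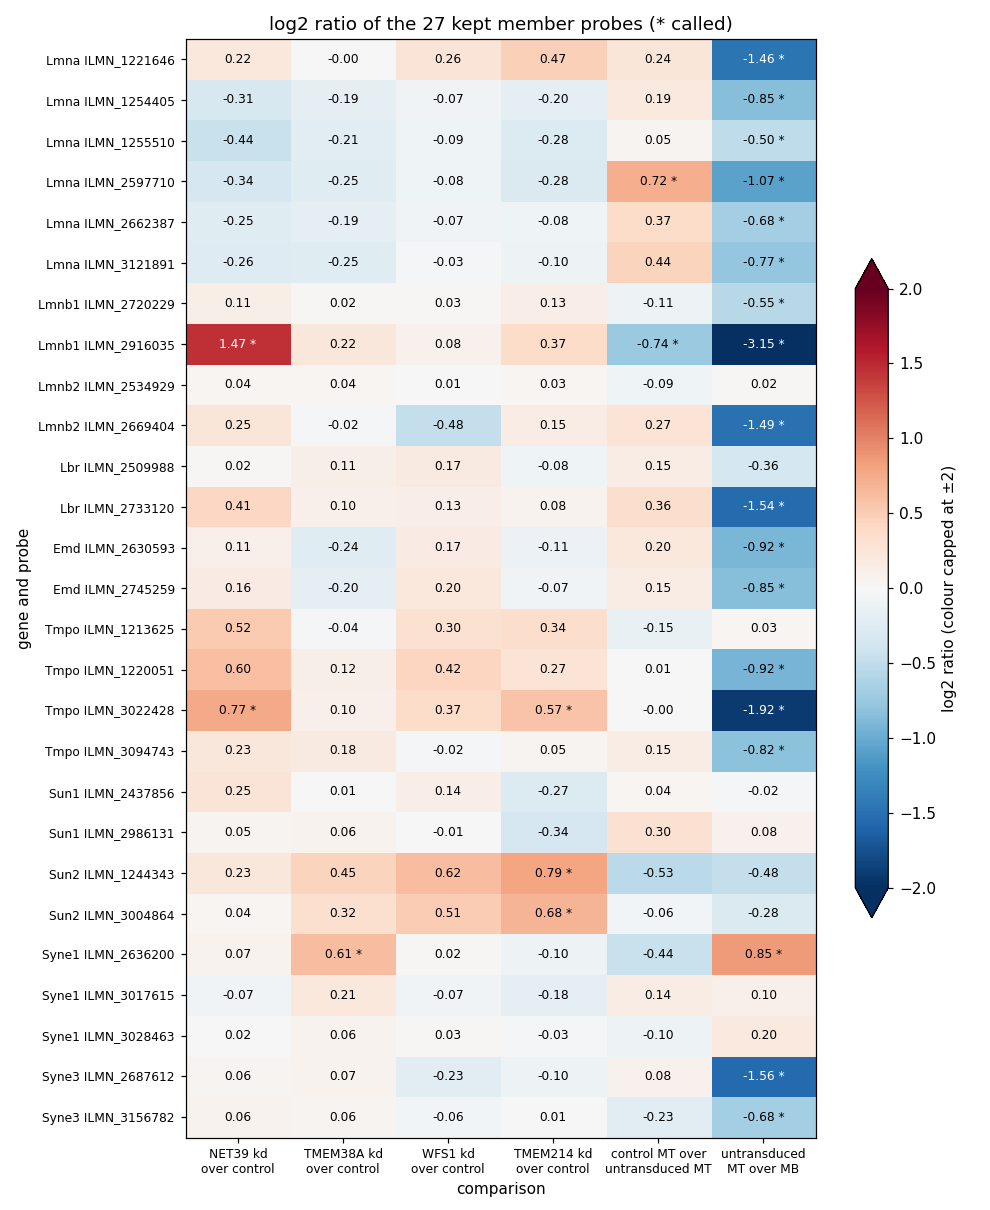
Log2 ratios of the 27 kept probes of the 10 genes (rows) in 6 comparisons (columns: the 4 KDs over control shRNA MTs, control shRNA MTs over untransduced MTs, and untransduced MTs over MBs); colour is capped at ±2, and an asterisk marks a call. The right-hand column is mostly below 0, with Lmnb1 at -3.15, and each KD column holds at most 3 called probes.

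The 4 KD lines were then compared with each other, since a call in one line and not in another does not show that they differ. Over the 6 pairs 9 gene differences were called, all in Lmnb1, Lmnb2, Sun1 and Syne1. Lmnb1 was higher in the NET39 KD than in the TMEM38A KD (1.24 ± 0.15, adjusted p = 3.8e-06, with 13.3% of kept probes called), the WFS1 KD (1.39 ± 0.15, adjusted p = 1.5e-06, 8.92% called) and the TMEM214 KD (1.10 ± 0.15, adjusted p = 8.1e-05, 3.74% called). The lowest NET39 KD array, 7.89, lay above the highest Lmnb1 value of the other 3 KDs, 7.05.

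Syne1 was higher in the TMEM38A KD than in the WFS1 KD (0.59 ± 0.15, adjusted p = 0.0087, 9.63% of kept probes called) and the TMEM214 KD (0.71 ± 0.15, adjusted p = 0.0017, 11.9% called), and lower in the NET39 KD than in the TMEM38A KD (-0.54 ± 0.15, adjusted p = 0.012). The lowest TMEM38A KD array, 6.85, was above the 6.30 to 6.62 of the other KD arrays. Leaving out TMEM38A KD replicate 2 ended the calls against the NET39 KD (-0.45) and the WFS1 KD (0.50), and leaving out NET39 KD replicate 2 ended the call between the NET39 and TMEM38A KDs as well (-0.46). All 3 Syne1 differences lost the call with median scaling (-0.25 for NET39 over TMEM38A, 0.53 for TMEM38A over WFS1 and 0.50 for TMEM38A over TMEM214), with the deposited matrix values and with the mean of probes. Lmnb2 was higher in the NET39 KD than in the WFS1 KD (0.72 ± 0.15, adjusted p = 0.0025), with 8.71, 8.86 and 9.21 against 8.16, 8.26 and 8.19. It was lower in the WFS1 KD than in the TMEM214 KD (-0.62 ± 0.15, adjusted p = 0.0091, 7.61% of kept probes called), where it read 8.94, 8.83 and 8.71. The WFS1 KD thus had the lowest Lmnb2 arrays of the 4 lines. Both Lmnb2 differences lost the call with the mean of probes, which includes the dim second probe (0.38 for NET39 over WFS1 and -0.32 for WFS1 over TMEM214).

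Sun1 was higher in the NET39 KD than in the TMEM214 KD (0.53 ± 0.11, adjusted p = 0.0061), with 10.27, 10.00 and 10.21 against 9.55, 9.65 and 9.70. The groups did not overlap, and the ratio fell under the threshold on size without NET39 KD replicate 1 (0.47) or TMEM214 KD replicate 1 (0.48). The call was also lost with median scaling (0.53, adjusted p = 0.24), the deposited matrix values (0.49) and the mean of probes (0.46). Of the 9 differences between KD lines, median scaling kept the 5 of Lmnb1 and Lmnb2 and lost the 4 of Syne1 and Sun1, while 8 others were then called, in Lmnb1, Lmnb2, Lbr, Emd and Sun1. Among probes that do not stand for their gene, Tmpo ILMN_3022428 was higher in the NET39 KD than in the TMEM38A KD (0.67 ± 0.12, adjusted p = 0.00045). A dim Tmpo probe, ILMN_1213625, was at least 1.4-fold higher in the NET39 KD, against no TMEM38A KD array above background, and lost its call when any TMEM38A KD replicate or NET39 KD replicate 1 or 2 was left out.

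The 6 Lmna probes did not move alike, a comparison made after their values were seen and given without a test. ILMN_1221646 had log2 ratios of 0.22 in the NET39 KD, 0.00 in the TMEM38A KD, 0.26 in the WFS1 KD and 0.47 in the TMEM214 KD over control shRNA MTs. The other 5 probes were at or below -0.03 in each of these KDs, down to -0.44 in the NET39 KD. In limma the TMEM214 KD value of ILMN_1221646 had an adjusted p of 0.0097 and missed only the threshold on size. Which Lmna transcripts each probe detects was not examined here.

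**Figure D5:**
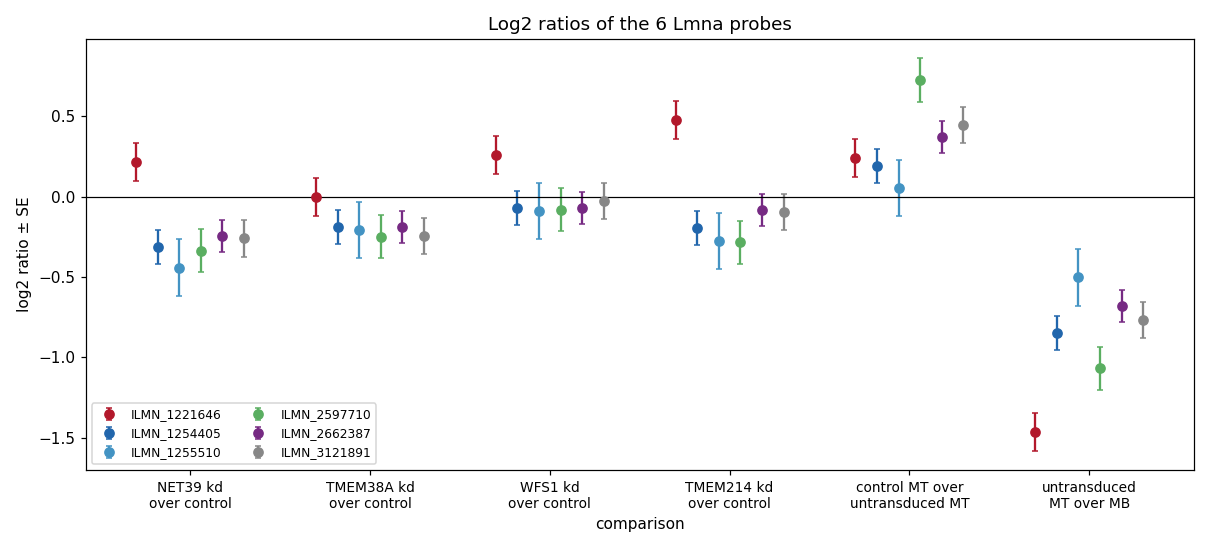
Log2 ratio (± SE) of each of the 6 Lmna probes in the 4 KDs over control shRNA MTs, in control shRNA MTs over untransduced MTs and in untransduced MTs over MBs. All 6 are below 0 in MTs over MBs, and ILMN_1221646 lies above the other 5 in each KD and below them in MTs over MBs.

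Over the 7 group means the 10 genes ranged widely in how much they moved, from a span of 3.89 log2 in Lmnb1 to 0.53 in Sun1. The span was above 1 log2 for 5 of them: that of Lmnb1, Syne3 (1.71), Lmnb2 (1.69), Lbr (1.54) and Syne1 (1.02). For Lmnb1 the group means were 7.99 in the NET39 KD, 6.75 in the TMEM38A KD, 6.6 in the WFS1 KD, 6.89 in the TMEM214 KD, 6.53 in control shRNA MTs, 7.26 in untransduced MTs and 10.41 in MBs. Below MBs the order was NET39 KD, untransduced MTs, TMEM214 KD, TMEM38A KD, WFS1 KD and control shRNA MTs, and from untransduced MTs downward each group overlapped its neighbours in the order. For Syne1 the TMEM38A KD (7.07) and untransduced MTs (6.90) were highest, with overlapping arrays, and MBs (6.05) lowest.

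For each of these 5 genes the most similar patterns were sought among 3847 genes whose means also spanned at least 1 log2. Lmnb1 was most like Msc, a repressor of myogenic factors that is also on the myoblast marker list (Pearson r = 0.997 over 7 group means), then Epop (0.994) and Gm10052 (0.993). Lmnb2 was most like Haus6, a subunit of the augmin complex of the spindle (0.996), Lrrc59 (0.993) and the pore protein Nup160 (0.993). Lbr was most like Trmt2a (0.985), Zgrf1 (0.984) and Kif2a (0.980), Syne3 like Hirip3 (0.996), Igsf11 (0.996) and Kat2a (0.996), and Syne1 like Pik3ip1 (0.969), Akap6 (0.964) and Nmrk2 (0.958). All 7 means share the same arrays and normalization. The 6 MT means alone were also correlated, after seeing the data. There r with these 15 genes was 0.868 to 0.986, lowest for the 3 of Syne3 (0.868 to 0.900) and highest for Haus6 with Lmnb2. The 15 genes were picked on means that include these 6, so the values are not an independent check.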

How the data were processed

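Total RNA from 21 C2C12 cultures was hybridized to Illumina MouseWG-6 BeadChips. The deposited scanner table holds bead intensity values per probe that the authors did not normalize, and the deposited matrix holds their quantile-normalized log2 values. The scanner values were corrected with normexp (offset 50), quantile-normalized and set on a log2 scale in limma 3.58.1 (R 4.3.3). The tables name no control probes and no detection p-values, so a probe counted as above background where its signal exceeded a level set on each array from the spread below the mode, at a one-sided 0.05 level, and was kept at 3 or more such arrays. Each array's normalization makes all arrays alike in distribution, so a change in total RNA cannot be seen. One limma fit over 7 groups (14 residual degrees of freedom, median SE 0.098 log2) gave moderated tests with Benjamini-Hochberg adjustment over 27856 probes within each comparison. The methods name a moderated F, which was run as an alternative. It gives each probe a single adjusted p over the 6 comparisons, set beside the unchanged log2 ratios. A call under it can therefore rest on another comparison. No slide position was given in the sources used here. The number of arrays limits the precision.

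Probe names came from the platform annotation, which can be old: 22724 kept probes carried 1 symbol (13585 genes), and 18 probes listed with several symbols were not named. Members and gene lists were chosen with earlier results of these data known. Named genes were the members, per comparison the 4 or fewer called genes that moved most in a list, the shRNA targets and the 3 most similar patterns. No arrays were identical (highest r between arrays 0.997). Replicate numbers deviated together in untransduced MTs and MBs (r = 0.14 to 0.28), in control shRNA and untransduced MTs (0.12 to 0.16) and in the NET39 KD and control (0.17 to 0.26), and not in every pair for the other KDs. Code was tested on simulated data. Promoters came from RefSeq (GRCm38.p6), and Lmnb1 was not among those used here.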

Additional observations from a re-analysis of the deposited data

Results flagged for a closer look

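A set of 9 differences between KD lines was singled out because the test between the lines itself passed the threshold in limma. Lmnb1 was higher in the NET39 KD than in the TMEM38A KD (1.24), the WFS1 KD (1.39) and the TMEM214 KD (1.10). Syne1 was lower in the NET39 KD than in the TMEM38A KD (-0.54), and higher in the TMEM38A KD than in the WFS1 KD (0.59) and the TMEM214 KD (0.71). Lmnb2 was higher in the NET39 KD than in the WFS1 KD (0.72) and lower in the WFS1 KD than in the TMEM214 KD (-0.62). Sun1 was higher in the NET39 KD than in the TMEM214 KD (0.53). All are log2 ratios of the brightest probe with 3 arrays a line.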

How the results depend on the processing

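Of 583 values of the 37 called probe results under the alternatives run, 515 kept the call and direction, 68 kept the direction but not the call, and 0 reversed. Under the moderated F the log2 ratios were those of the main fit, so its values could not reverse. The count of members called between control shRNA and untransduced MTs was 1, and was 7 with median scaling, 2 with an offset of 16 and 0 with the mean of each gene's probes. With median scaling 3 uncalled probes there took the other sign and were called: Tmpo ILMN_3022428 (0.67), Sun2 ILMN_1244343 (0.84) and Sun2 ILMN_3004864 (1.35). In the NET39 KD the count of 1 became 2 with the mean of probes, the moderated F and array weights, each adding Tmpo. The moderated F has a single adjusted p per probe for all 6 comparisons. Its calls of Tmpo here and of Sun2 in the WFS1 KD may rest on another comparison. In the TMEM38A KD the count of 1 became 0 with the deposited matrix values, without background correction and with the mean of probes. Median scaling there gave 1 member, Emd, lower (-0.66), with 8.56% of all calls higher in place of 44.1%. In the WFS1 KD the count of 0 became 1 with median scaling and with an offset of 16 (Lmnb2 lower), and with the moderated F and array weights (Sun2 higher). The shares of higher calls with median scaling were 9.04% there in place of 53.6%, 66.5% in the NET39 KD in place of 53.7%, and 65.8% in the TMEM214 KD in place of 53.5%. In the TMEM214 KD the count of 1 became 0 with median scaling and with no filter. The 9 differences between KD lines became 5 with the matrix values and 3 with the mean of probes; with median scaling they were 13, of which 5 (those of Lmnb1 and Lmnb2) were among the 9. The causes of these changes were not tested. Leaving out 1 array of the groups compared at a time gave 7 to 8 members in MTs over MBs, 1 to 2 in control shRNA over untransduced MTs (2 without untransduced MT replicate 2 or 3 or control replicate 3, through Syne1), 1 in the NET39 KD, 0 to 1 in the TMEM38A KD, 0 in the WFS1 KD, 0 to 1 in the TMEM214 KD and 7 to 9 between KD lines. MB replicate 1, in neither of its groups, moved the NET39 KD count to 2 through Tmpo when left out of the fit. The values of the lists under median scaling, the matrix values and without MB replicate 1 were chosen after seeing the data. The replicate number as a block moved no count of called members by over 1.5 times: with the replicate block 8 members were called in MTs over MBs, 1 in each of the transduction, NET39, TMEM38A and TMEM214 comparisons, 0 in the WFS1 KD and 9 between KD lines. A slide block was not run, since no slide was named. Dim probes near background, such as those of Syne1 and Syne3, limit what can be seen.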
